A study of Mus musculus with 48 samples.

Results

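Ighv5-2, long known as VH81X, is a variable (VH) gene segment of Igh, the heavy chain locus of the mouse. It was the VH segment nearest the D segments that was joined to any extent in the libraries described here. Junctions were counted as Ighv5-2 junctions when the prey breakpoint fell within chr12:114816689-114816998 of mm9. This interval held 207180 of the 605816 VH junctions and of the 10275487 junctions of all kinds in 25 libraries, out of 48 samples in the series. The annotated gene spans 114816715 to 114817201 on the minus strand, and its last exon ends at 114816715, called the coding end below. Of the 112 annotated VH genes of the region it was the second from the D side. Only 4 further junctions lay within 200 bp outside the interval.

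The libraries were made by LAM-HTGTS, which extends a primer from a bait segment, here the JH segments, and sequences into the DNA joined to it, called the prey. Bone marrow (BM) pro-B cells of C57BL/6 mice were the source of 3 libraries labelled WT (WT BM) and of 4 that carry an Igh inversion by their labels (INV BM). The sample labelled WT BM replicate 4 and a pooled sample of WT BM replicates 2 and 3 were not analysed here, since the lists at hand for them are off-target lists by their names and the rule takes full JH1-4 lists. BM cells were taken with B220 beads and grown for 4 to 5 days with the cytokines SCF (2 ng/mL) and IL-7 (10 ng/mL). The BM labels list RAG1 deficiency and no step that restores RAG, although these libraries held many joints. The other 18 libraries came from pro-B lines transformed by v-Abl, 3 for each of 6 groups. All of them carried OsTIR1, which targets tagged proteins for auxin-induced decay, and Emu-Bcl2, which keeps arrested cells alive. All were also RAG1 deficient, were infected with RAG1/2 retrovirus and were kept for 4 days in 3 uM STI-571, which blocks the Abl kinase and arrests the cells. The groups were the Primary line untreated, a Wapl-degron line untreated or with IAA/Dox, a single-Igh Wapl-degron line untreated or with IAA/Dox, and the single-Igh line with the inversion and IAA/Dox. IAA, an auxin, was used at 150 uM for 3 days together with doxycycline, starting after 1 day of STI-571, to deplete Wapl, a factor that releases cohesin from chromatin. The labels do not say whether replicates came from separate cultures or mice, so the spread between libraries may be technical.

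V(D)J recombination in pro-B cells joins a D to a JH segment first and then a VH segment to the DJH joint. The RAG endonuclease cuts at a recombination signal sequence (RSS), a heptamer and a nonamer apart from each other by a spacer, which flanks each segment. RAG is known to scan chromatin that cohesin extrudes past the recombination centre, and proximal VH segments carry CTCF-binding elements close to their RSSs. Ighv5-2 is known for frequent joining in fetal and early B-lineage cells, and for heavy chains that are often disfavoured during B cell development.

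The sequence around the Ighv5-2 coding end is shown because most Ighv5-2 breakpoints lay at or within a few bases of it. It is given 5′ to 3′ on the minus strand (mm9, chr12:114816636-114816745), with the heptamer, the nonamer and an AGGGGGC motif in capitals.
Ighv5-2 end: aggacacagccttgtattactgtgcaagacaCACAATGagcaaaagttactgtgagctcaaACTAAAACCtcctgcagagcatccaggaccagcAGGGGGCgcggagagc
The heptamer CACAATG directly follows the coding end, and the nonamer ACTAAAACC follows a spacer of 23 bases. The motif AGGGGGC, which resembles the core of known CTCF sites, starts 64 bases past the coding end. Among the 110 VH genes on the minus strand, CACAATG followed the coding end of 9 and CACAGTG of 71. ACTAAAACC stood at the nonamer position in 6. AGGGGGC, searched on both strands in the 100 bases past the coding end, was present in 23 genes (20.9%). These included the near neighbours Ighv2-2, Ighv5-4, Ighv2-3, Ighv5-6, Ighv2-4, Ighv5-9 and Ighv2-5, where it started 64 or 66 bases past the coding end. Ighv2-1 lacked it.

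The RSSs of near neighbours are shown to compare with it, heptamer and nonamer in capitals.
Ighv5-2 RSS: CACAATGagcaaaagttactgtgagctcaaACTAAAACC
Ighv5-4 RSS: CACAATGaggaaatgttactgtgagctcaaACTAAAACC
Ighv5-6 RSS: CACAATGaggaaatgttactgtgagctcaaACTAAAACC
Ighv2-2 RSS: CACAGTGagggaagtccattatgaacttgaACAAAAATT
Ighv5-4 and Ighv5-6 matched Ighv5-2 at 37 of 39 RSS bases, with the same heptamer and nonamer. Ighv2-2, the next gene after Ighv5-2, matched at 24 of 39 and had another heptamer and another nonamer.

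The 25 libraries held between 61194 and 1016401 junctions each. Use is given as 2 readings: the percent of junctions in the D and VH regions together, and the percent of VH junctions alone. The first depends on the VH share of these junctions as well as on which VH segment was joined. VH junctions made up 48.2% to 51.1% of D plus VH junctions in WT BM and 9.001% to 13.1% in INV BM. In v-Abl lines they made up 0.831% to 1.55% untreated and 3.85% to 5.42% with IAA/Dox. In the inverted single-Igh line with IAA/Dox they made up 0.246% to 0.550%, with only 144 VH junctions in replicate 1. A high percent of VH junctions in the inverted groups is therefore a large part of a small VH total. Junctions within the JH region, which made up 5.11% of WT BM replicate 1 but 66.1% and 88.0% of replicates 2 and 3, are in neither reading. No molecular identifiers were read, so intervals and tests cover no amplification error. With 3 libraries against 3 the smallest exact p is 0.1, and with 4 against 3 it is 0.0571. No exact permutation comparison of groups, of shares or of joint features, could therefore pass 0.05.

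In wild-type BM, Ighv5-2 was the most used VH segment. It took 2.82%, 3.58% and 4.81% of D plus VH junctions in WT BM replicates 1 to 3, from 10686, 5931 and 5773 junctions. Of VH junctions alone it took 5.85%, 7.09% and 9.40%. It ranked first of 706 junction segments in each of the 3 libraries, 1.88 times above the second, Ighv2-2, which averaged 1.98% ± 0.223 (SD, n = 3) of D plus VH junctions.

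In BM with the inversion most VH joining was at Ighv5-2. It took 11.2%, 7.55%, 7.53% and 7.54% of D plus VH junctions in INV BM replicates 1 to 4, all above the highest WT BM library. VH junctions as a whole were a smaller part of D plus VH junctions than in WT BM, 9.001% to 13.1% against 48.2% to 51.1%. Of VH junctions Ighv5-2 took 85.4%, 83.1%, 83.4% and 83.8%. The means were 3.73% ± 1.00 (SD, n = 3) in WT BM and 8.45% ± 1.82 (SD, n = 4) in INV BM, a 2.26-fold difference without overlap (two-sided exact permutation p = 0.0571, adjusted p = 0.123 over 16 tests). Within sequencing run 1 the values were 11.2% and 2.82% with 1 library each, and within run 5 the means were 7.54% (n = 3) and 4.19% (n = 2). Among VH segments in a fit with limma, Ighv5-2 had a log2 difference of 1.51 ± 0.248 (SE), adjusted p = 9.9e-05. In that fit 176 of 271 segments passed (64.9%), 16 of them higher and 160 lower, and the median log2 difference over all 271 was -3.87. Of the 271 segments, 43 had a higher log2 difference than Ighv5-2, whether called or not. Without WT BM replicate 1, 9 of 244 segments were called higher and 139 lower. With distinct junctions counted once it was 10 and 150 of 176, and with segments of at least 100 junctions 8 and 125 of 133. The size depended on the library size used: Ighv5-2 was at 2.80 with all junctions (26 segments higher and 122 lower) and at 3.73 with VH junctions (62 higher and 123 lower). Without WT BM replicate 3 the log2 difference was 1.55 but its SE became 199.8 (adjusted p = 0.994), and without limma's precision weights, a setting added after seeing the data, it was 1.19 with all libraries and 1.39 without that one (adjusted p = 3.1e-10).

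**Figure D1:**
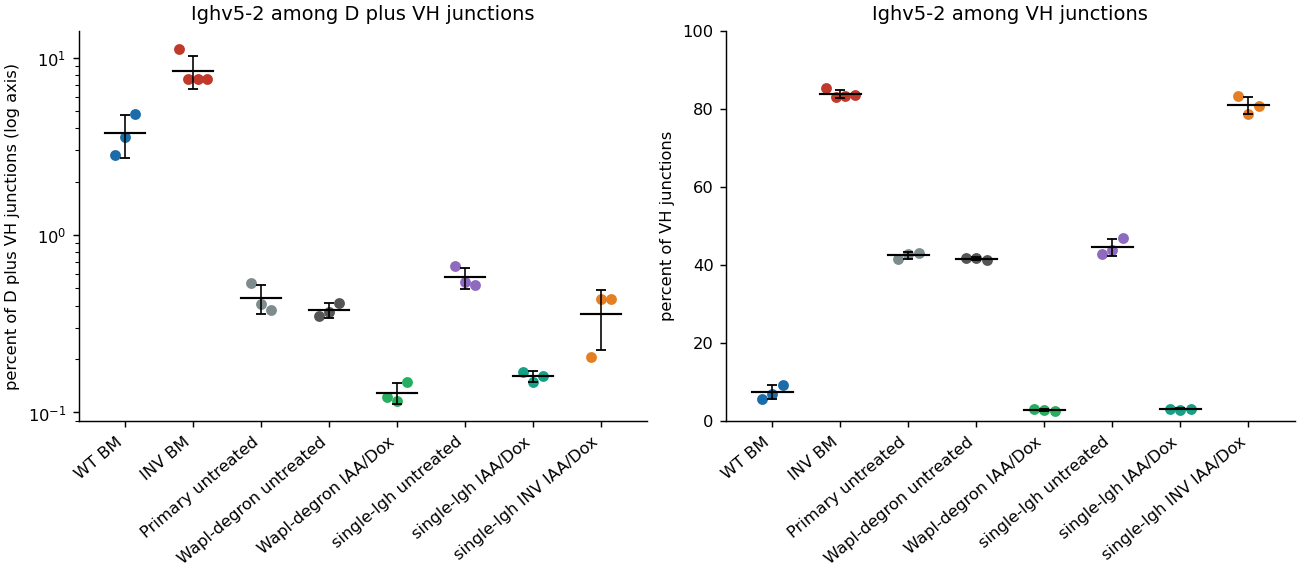
Ighv5-2 junctions as percent of D plus VH junctions (left, log axis) and of VH junctions (right, linear axis) in each group. Each point is a library, and bars show the mean and 1 SD over 3 libraries (4 for INV BM). BM libraries lie highest on the left, between 2.82% and 11.2%, whereas on the right both inverted groups lie near the top, between 78.9% and 85.4%.

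In untreated v-Abl lines Ighv5-2 was a small part of all joining but a large part of VH joining. The Primary line had 0.535%, 0.406% and 0.380% of D plus VH junctions at Ighv5-2. The Wapl-degron line had 0.349%, 0.367% and 0.416%, and the single-Igh line 0.666%, 0.540% and 0.523%. Of VH junctions, the 9 libraries had between 41.3% and 47.0%. The levels among D plus VH junctions in v-Abl lines depended on how repeated junctions were counted. With distinct junctions counted once the group means were 0.996% ± 0.211 in the Primary line, 1.11% ± 0.190 in the untreated Wapl-degron line and 1.60% ± 0.231 in the untreated single-Igh line (SD, n = 3 each). In the same count they were 0.215% ± 0.0312 and 0.324% ± 0.0427 with IAA/Dox in the Wapl-degron and single-Igh lines and 0.755% ± 0.227 in the inverted line, against 3.499% ± 0.833 in WT BM and 8.35% ± 1.63 in INV BM. Wapl-degron untreated and Primary untreated libraries overlapped on both readings (exact permutation p = 0.3 for each, adjusted p = 0.3). In limma the log2 difference between these groups was -0.15 ± 0.166 (SE, adjusted p = 0.868), and 0 of 67 segments were called (0%), with 3 at an unadjusted p under 0.05 and again 0 called without the precision weights.

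WT BM stood above the Primary line on the first reading and below it on the second. Ighv5-2 was 8.48 times higher in WT BM as a percent of D plus VH junctions (3.73% ± 1.00 against 0.440% ± 0.0833, SD, n = 3 each). As a percent of VH junctions it was 5.71 times lower (7.45% ± 1.80 against 42.5% ± 0.873). The groups overlapped on neither reading (p = 0.1 by exact permutation on each, 0.123 after adjustment). The limma log2 difference was 3.14 ± 0.185 (SE, adjusted p = 1.6e-13) against a median of 7.09 over 184 segments, of which 84.8% were called, each of them higher in WT BM. With all junctions as library size it was 1.53 (adjusted p = 0.084), and with VH junctions it turned to -2.55 (adjusted p = 9.5e-06). With VH junctions 52 of the 184 segments were called, 45 higher and 7 lower in WT BM. When distinct junctions were counted once, the 8.48-fold difference became 3.51-fold.

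Ighv5-2 use was lower with IAA/Dox in both lines. In the Wapl-degron line with IAA/Dox it took 0.123%, 0.117% and 0.149% of D plus VH junctions, from 126, 221 and 156 junctions, all below the 3 untreated libraries. The group mean was 2.91 times lower, 0.129% ± 0.0174 against 0.377% ± 0.0344 (SD, n = 3 each, exact permutation p = 0.1, adjusted p = 0.123). Of VH junctions it took 3.18%, 2.99% and 2.75%, a mean 14.0 times lower. In the single-Igh line with IAA/Dox it took 0.169%, 0.148% and 0.161% of D plus VH junctions, from 149, 280 and 162 junctions. Its mean was 3.61 times lower, 0.160% ± 0.0105 against 0.576% ± 0.0779 (SD, n = 3 each, exact permutation p = 0.1, adjusted p = 0.123), again without overlap. Of VH junctions it held 3.24%, 3.05% and 3.29%, a mean 14.0 times lower.

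The direction was the opposite of most VH segments. In limma Ighv5-2 fell by 1.57 ± 0.173 (SE) on the log2 scale in the Wapl-degron line (adjusted p = 6.0e-18), while the median over 128 segments was 5.05. Of these segments 94.5% were called, 116 higher and 5 lower with IAA/Dox, and only 1 segment had a lower value than Ighv5-2. In the single-Igh line it fell by 1.86 ± 0.156 (SE, adjusted p = 2.3e-08), with a median of 5.09 over 134 segments. There 96.3% were called, 124 higher and 5 lower, and again 1 segment was lower than Ighv5-2. The next genes away from D were also lower by group mean. In the Wapl-degron line Ighv5-4 went from 0.0662% to 0.0299% of D plus VH junctions and Ighv2-3 from 0.0515% to 0.0185%. In the single-Igh line Ighv2-2 went from 0.245% to 0.0673% and Ighv5-4 from 0.100% to 0.0215%. Farther out, Ighv5-9 and Ighv2-5 had higher means with IAA/Dox in both lines, and Ighv2-4 in the Wapl-degron line. With VH junctions as library size Ighv5-2 was at -3.82 in each line, with 108 segments higher and 12 lower in the Wapl-degron line and 98 higher and 10 lower in the single-Igh line. These p-values borrow their spread from all segments and do not measure the spread of Ighv5-2 alone. In libraries with IAA/Dox Ighv5-2 ranked 8th in each Wapl-degron library and from 5th to 7th in the single-Igh line, where Ighv8-12 led with 0.280% ± 0.00783 (SD, n = 3) of D plus VH junctions. Counted once per distinct junction, the decreases were 5.13-fold and 4.93-fold. Within sequencing run 8 the Wapl-degron values were 0.117% (n = 1) against 0.377% (n = 3), and within run 9 the single-Igh values were 0.155% (n = 2) against 0.540% (n = 1).

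Under IAA/Dox too, the libraries with the inversion had more Ighv5-2 junctions. The inverted single-Igh line with IAA/Dox had 0.205%, 0.434% and 0.434% of D plus VH junctions at Ighv5-2, from 120, 906 and 1361 junctions. All 3 values lay above the single-Igh IAA/Dox libraries, which also serve in the comparison with the untreated line above. The mean was 2.24 times higher, 0.357% ± 0.132 (SD, n = 3, exact permutation p = 0.1, adjusted p = 0.123). Of VH junctions Ighv5-2 took 83.3%, 78.9% and 80.8%, a mean 25.4 times higher. VH junctions as a whole were fewer with the inversion, at 0.246% to 0.550% of D plus VH junctions against 4.86% to 5.22% without it. In limma the log2 difference was 1.16 ± 0.370 (SE, adjusted p = 0.00365), where 97.8% of 136 segments were called, 4 higher and 129 lower, with a median of -5.25. With VH junctions as library size Ighv5-2 was at 4.68, and 50 of the 136 segments were called, 5 higher and 45 lower. With sequencing run as a block it was 0.87 (adjusted p = 0.264), and with every segment of at least 1 junction it was 1.13 (adjusted p = 0.067). Within run 7 the values were 0.319% (n = 2) against 0.169% (n = 1). The JH segments at the bait end differed between these libraries. Inverted replicate 1 (100% JH1) had 0.205%, against 0.169% and 0.161% in IAA/Dox replicates 1 and 3 (82.5% and 81.2% JH1), with overlapping Wilson intervals. Inverted replicates 2 and 3 (50.5% and 55.2% JH2) had 0.434% each, against 0.148% in IAA/Dox replicate 2 (59.1% JH2). The part of the baits in these values was not tested.

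BM and lines were also set side by side. Wapl-degron IAA/Dox libraries had 28.9 times less Ighv5-2 among D plus VH junctions than WT BM, and the inverted single-Igh libraries 23.6 times less than INV BM, both without overlap (p = 0.1 and 0.0571 by exact permutation, 0.123 after adjustment). Counting distinct junctions once gave 16.2 times and 11.1 times. As a percent of VH junctions the Wapl-degron IAA/Dox libraries were 2.50 times below WT BM, 2.97% ± 0.213 against 7.45% ± 1.80 (SD, n = 3 each, exact permutation p = 0.1, adjusted p = 0.123), again without overlap. On that reading the inverted groups overlapped, 81.0% ± 2.25 (n = 3) against 83.9% ± 1.01 (n = 4, SD, exact permutation p = 0.114, adjusted p = 0.131). Ordered by mean percent of D plus VH junctions the groups ran from INV BM to WT BM, single-Igh untreated, Primary untreated, Wapl-degron untreated, single-Igh INV IAA/Dox, single-Igh IAA/Dox and Wapl-degron IAA/Dox. Neighbours in this order overlapped except INV BM with WT BM, WT BM with single-Igh untreated, and single-Igh INV IAA/Dox with single-Igh IAA/Dox. With distinct junctions counted once, Wapl-degron untreated stood before Primary untreated.

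The 10 annotated VH genes nearest D in the mm9 reference set the local context. Ighv2-1, the one gene nearer to D, is followed by CACACAA at the heptamer position and had 3 junctions in all libraries, each in INV BM. Ighv5-8 had 0. The first genes after Ighv5-2 away from D fell off in order by WT BM group mean. They had 1.98% of D plus VH junctions at Ighv2-2, 1.201% at Ighv5-4, 0.682% at Ighv2-3 and 0.657% at Ighv5-6. Libraries of Ighv2-3 (0.550% to 0.859%) and Ighv5-6 (0.587% to 0.750%) overlapped. Farther out the order did not hold, with 0.0921% at Ighv2-4 and 0.146% at Ighv5-9.

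The ratio of Ighv5-2 to Ighv2-2 stayed near 2 in the 6 groups without the inversion. It was 1.87 ± 0.408 in WT BM, 2.15 ± 0.0690 in the Primary line and 2.07 ± 0.0387 in the untreated Wapl-degron line (SD, n = 3 each). It was 1.89 ± 0.0693 in the Wapl-degron line with IAA/Dox, 2.39 ± 0.204 in the untreated single-Igh line and 2.38 ± 0.108 with IAA/Dox. Ighv2-2 was thus lower with IAA/Dox as well, at 0.0686% against 0.183% of D plus VH junctions in the Wapl-degron line. The ratio with and without IAA/Dox overlapped in the single-Igh line and did not in the Wapl-degron line. The ratio to Ighv5-4, whose RSS is nearly the same, was 3.08 ± 0.499 in WT BM and 5.82 ± 0.273 in the Primary line. The ratio to Ighv5-6 was 5.62 ± 0.804 in WT BM and 9.64 ± 0.577 in the Primary line. For both genes WT BM libraries lay below every Primary library.

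With the inversion, joining was at low levels at the genes after Ighv5-2 in the mm9 reference. Order and position are given here by that reference and need not hold on the inverted locus. Ighv2-2 had 78 junctions in the 4 INV BM libraries against 159725 at Ighv5-2, and 13 against 2387 in the inverted single-Igh line. The highest other gene among the 10 in INV BM was Ighv5-6 with 0.0145% of D plus VH junctions, 583 times below Ighv5-2. In INV BM the most used other segment of the whole VH region started at chr12:117193769, with 0.164% ± 0.0295 (SD, n = 4). In the reference this position is at the far end of the region. VH junctions other than Ighv5-2 were on the minus strand in 29.4% ± 1.49 of cases in INV BM (SD, n = 4) and 39.9% ± 3.00 in the inverted single-Igh line (SD, n = 3), against group means of 0.533% to 1.71% elsewhere. Ighv5-2 itself kept its strand: 0.456% of its INV BM junctions and 1.21% in the inverted single-Igh line were on the minus strand.

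**Figure D2:**
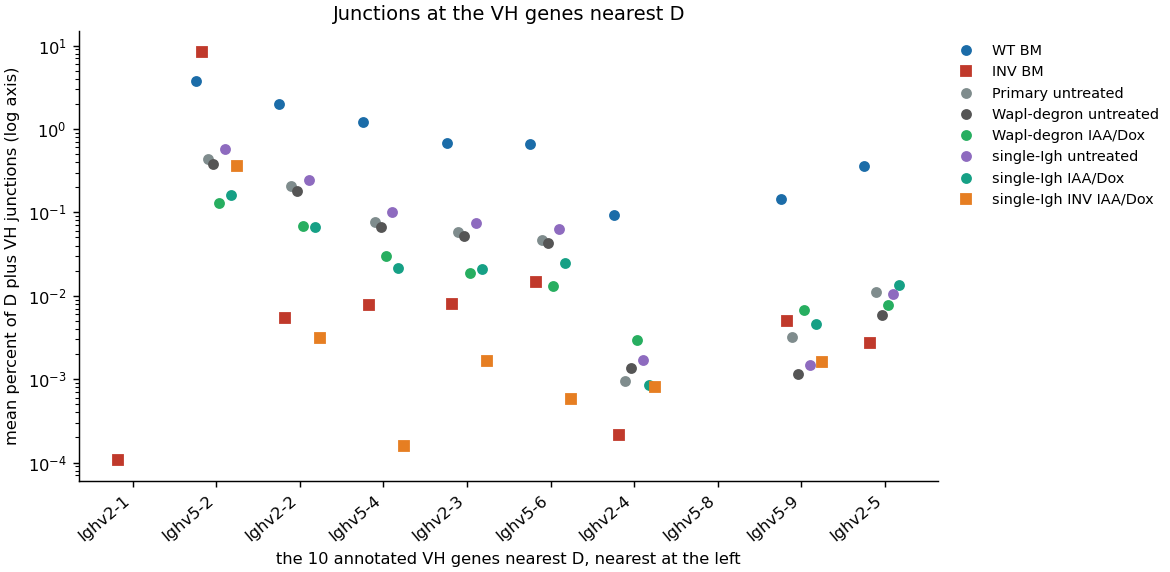
Mean percent of D plus VH junctions (log axis) at the 10 annotated VH genes nearest D, for the 8 groups (squares mark groups with the inversion). The nearest gene is at the left, by the order of the mm9 reference. Group means of 0 are not drawn, and symbols are spread sideways for legibility. Both inverted groups keep Ighv5-2 at 8.45% and 0.357% and lie far below it at the other genes, with 0.0145% the highest.

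Over the 25 libraries, the 5 segments of at least 100 junctions whose percent of D plus VH junctions ran most like that of Ighv5-2 were all unannotated stretches. They started at 117150311, 116843813, 115731942, 116995685 and 116047630 on chromosome 12, with Spearman's rho of 0.63, 0.63, 0.50, 0.47 and 0.46. The 134 segments compared had a median rho of 0.0058. All these shares have the library's D plus VH total as denominator, and the segments at the top held 102 to 488 junctions.

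Joints at Ighv5-2 were almost all of the kind that keeps the V segment. On the plus strand, where the prey runs from the coding end into the gene body, lay 205852 of its junctions (99.4%). The share per library ranged from 96.8% to 100%. Group means with and without IAA/Dox or inversion overlapped in the 4 comparisons made (exact permutation, adjusted p = 0.64 each). The remaining 1328 junctions were on the minus strand, running into the RSS side, and 51.96% of them lay at 114816714, the first base of the heptamer.

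Breakpoints lay at or just inside the coding end. The most used position on the plus strand was 114816715 itself, with no base removed, and held 73014 junctions (35.5%). Removal of 1, 2 and 3 bases, at 114816716, 114816717 and 114816718, accounted for 26.5%, 12.4% and 10.5%. In each library 83.3% to 93.0% of plus-strand junctions had lost 0 to 4 bases. Position 114816714, which includes a base of the heptamer, held 3.02%, and a base shared by both segments can shift an aligned breakpoint by that much.

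The profile was alike in shape between groups with a few shifts. At the most used breakpoint, WT BM libraries had 37.2%, 40.1% and 38.7% of their Ighv5-2 junctions, and INV BM libraries 35.3%, 35.2%, 36.3% and 33.4%, without overlap. The means differed by -3.59 points (exact permutation p = 0.0571, adjusted p = 0.64 over 32 tests). Inverted single-Igh libraries had 34.2%, 30.8% and 28.2%, all below the single-Igh IAA/Dox libraries with 40.3%, 34.3% and 40.1% (difference -7.17 points, exact permutation p = 0.1, adjusted p = 0.64). The untreated and IAA/Dox libraries overlapped in both lines. Losses of 10 to 19 bases were 2.14% ± 1.84 in WT BM and 2.94% ± 0.215 in INV BM, and 0.556% ± 0.261 to 1.17% ± 0.471 in untreated lines. Losses of over 9 bases were 5.08%, 1.01% and 2.05% in WT BM replicates 1 to 3, which overlapped the untreated lines (0.484% to 2.44%). INV BM libraries had 3.31% to 4.10%.

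**Figure D3:**
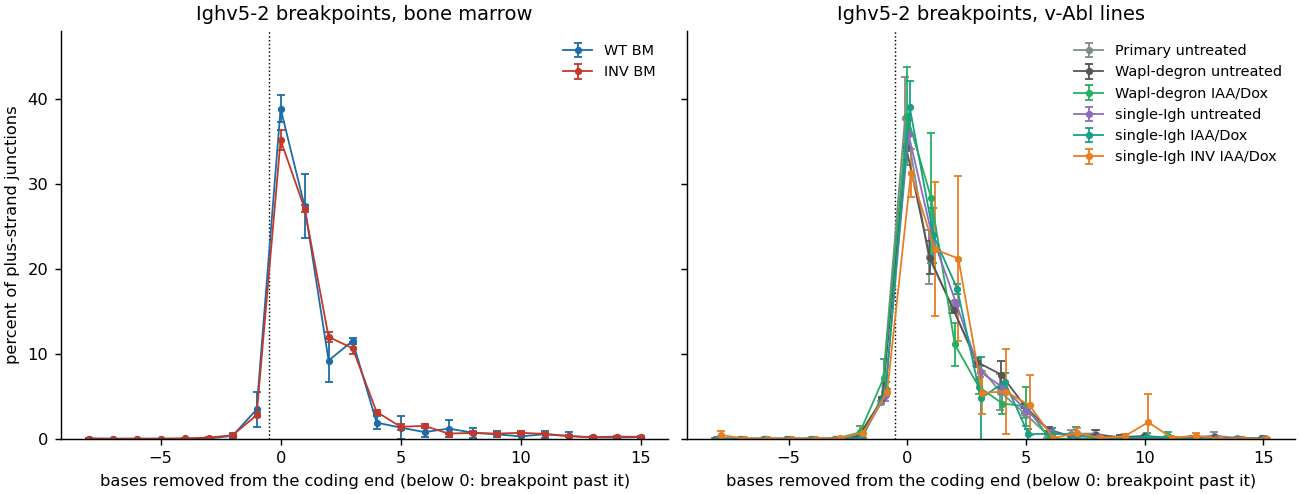
Percent of plus-strand Ighv5-2 junctions by bases removed from the coding end, for BM (left) and v-Abl lines (right). Points are means over libraries, bars 1 SD (n = 3, or 4 for INV BM), and points of the lines are shifted slightly sideways. In all groups the peak is at 0 bases removed, with group means from 31.3% to 39.03%.

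The bases between the JH and V alignments hold what is left of the D segment and any added bases. The lists hold at most 30 such bases, and values below 0 mean that the alignments overlap. The median for Ighv5-2 was 16, 17 and 16 bases in WT BM and 17 in each INV BM library. In untreated lines it was 11 to 13, with IAA/Dox 10 to 14, and in the inverted single-Igh line 8, 10 and 9. None of the 4 comparisons between groups passed (exact permutation, adjusted p = 0.64 to 1), and none could with so few libraries.

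Within a library, Ighv5-2 joints were shorter than those of other VH segments. The median for other VH was 17, 18 and 18 in WT BM, 18 in each INV BM library and 13 to 15 in untreated lines. Ighv5-2 was lower in 23 of 25 libraries and higher in 1, by a mean of -1.62 ± 1.51 bases (SD, sign-flip permutation p = 8.0e-05, adjusted p = 2.0e-04 over 5 tests). This p takes each library as independent, although libraries of a group share a line or genotype. The exception was single-Igh IAA/Dox replicate 3, with 14 against 11 from 162 Ighv5-2 junctions. D junctions had medians of -2 to 3 bases.

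Where the gap was long enough to read, most Ighv5-2 joints matched a D segment. Of joints with at least 8 bases between, 71.3% ± 1.05 in WT BM and 73.4% ± 1.48 in INV BM matched at least 8 bases of an annotated D in the coding orientation. The share was 90.4% to 91.5% as group means in untreated lines and 88.1% to 92.4% in the 3 groups with IAA/Dox. Matches in the opposite orientation were highest in the Wapl-degron line with IAA/Dox, at 4.98% ± 0.778, where each library lay above the untreated Wapl-degron libraries (2.22% ± 0.293, SD, n = 3 each, not tested). The treated libraries had 5.81%, 4.85% and 4.27% of only 86, 165 and 117 such joints, against 587, 2243 and 2474 joints untreated. Group means were 3.16% in WT BM, 3.72% in INV BM, 2.07% to 2.22% in untreated lines, 1.42% in the single-Igh line with IAA/Dox and 1.62% with the inversion. Joints with 0 or fewer bases between were 0.688% ± 0.584 in WT BM and 9.20% ± 4.62 in the inverted single-Igh line, with group means of 0.511% to 3.95% in the others.

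The share of Ighd1-1, a distal D segment, among these matches differed by group. It was the single D matched in 25.5% ± 5.51 of WT BM matches and 27.04% ± 0.644 in INV BM. It was matched in 49.2% ± 5.26 in the Primary line and 53.2% ± 2.84 in the untreated Wapl-degron line, against 19.9% ± 7.74 with IAA/Dox. The 3 untreated Wapl-degron libraries had 51.5%, 51.7% and 56.5% and the treated ones 14.3%, 16.7% and 28.7%, without overlap. In the single-Igh line the untreated libraries had 41.5%, 38.98% and 41.1%, those with IAA/Dox 40.9%, 21.9% and 50.4%, and the inverted ones 19.1% ± 0.798 (SD, n = 3). The overlap with IAA/Dox lay in replicates 1 and 3, in which 82.5% and 81.2% of D plus VH junctions were with JH1. Replicate 2, the only one of the 3 with at least 1% of each JH, lay below every untreated library. Inverted replicate 1, with JH1 alone, had 20%, against 18.8% and 18.5% in the other inverted libraries. Untreated single-Igh replicate 1, with JH2 alone, had 41.5%, against 38.98% and 41.1% in the other untreated ones. The part of the baits in these shares was not tested. Among D junctions, the share at Ighd1-1 was 77.2% ± 1.47 in the untreated Wapl-degron line and 24.0% ± 1.23 with IAA/Dox. In the single-Igh line it was 66.9% ± 2.97 untreated, 28.6% ± 6.02 with IAA/Dox and 37.5% ± 4.43 with the inversion (SD, n = 3 each). The D junction shares did not overlap with and without IAA/Dox in either line, and were not tested.

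A joint can make a heavy chain only when V and JH are in frame. In WT BM 30.5%, 26.3% and 23.5% of Ighv5-2 joints were in frame, and in INV BM 30.9%, 29.0%, 29.3% and 29.6%. All 7 of these lay below 33.3%, the share that frame alone would give, with the upper end of the 95% Wilson interval at most 31.3%. Counting distinct joints once gave 25.1% to 30.7%. In the same libraries, joints of other annotated VH genes were in frame in 63.3%, 46.9% and 48.7% in WT BM and 45.2%, 47.1%, 49.5% and 51.3% in INV BM. Ighv5-2 was lower in all 7 BM libraries, by 14.4 to 32.8 points, a difference described here and not tested.

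In untreated v-Abl lines the group means lay near 33.3% for Ighv5-2 and for other genes, and some libraries with IAA/Dox lay further from it. The group means for Ighv5-2 were 35.1% ± 1.16 in the Primary line, 32.1% ± 2.55 and 31.9% ± 0.781 in the untreated Wapl-degron and single-Igh lines (SD, n = 3 each). For other annotated VH genes they were 33.1% ± 0.281, 34.3% ± 0.695 and 32.7% ± 1.16. With IAA/Dox the Wapl-degron libraries had 34.9%, 48.9% and 35.3%, and the single-Igh libraries 33.8%, 31.4% and 34.2%. The 48.9% came from replicate 2, whose 221 Ighv5-2 lines held 117 distinct junctions, 42.7% of them in frame. The inverted single-Igh libraries had 24.2%, 41.8% and 39.8%. Ighv5-2 was below the other genes in 5 of 18 v-Abl libraries, and 33.3% lay inside the Wilson interval in 11 and outside it in 7. These 7 were the 3 inverted single-Igh libraries, Wapl-degron IAA/Dox replicate 2, and replicate 1 of each untreated line. The intervals count repeated lines. Counted once per distinct junction, replicate 1 had 33.6% in frame in the Primary line, from 212 distinct junctions. It had 30.1% of 670 in the Wapl-degron line and 31.1% of 1366 in the single-Igh line, both untreated. No group comparison passed (exact permutation, adjusted p = 0.64 to 1), and none could with so few libraries.

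Stop codons took a further part of the in-frame joints. Of in-frame Ighv5-2 joints, 28.3% ± 8.08 in WT BM and 31.0% ± 1.45 in INV BM held a stop codon between the V end and the JH tryptophan. In untreated lines the group means were 18.4% to 19.99%. In frame without a stop were 19.2% ± 3.31 of WT BM joints, 20.5% ± 1.02 of INV BM joints and 25.9% to 28.0% in untreated lines.

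**Figure D4:**
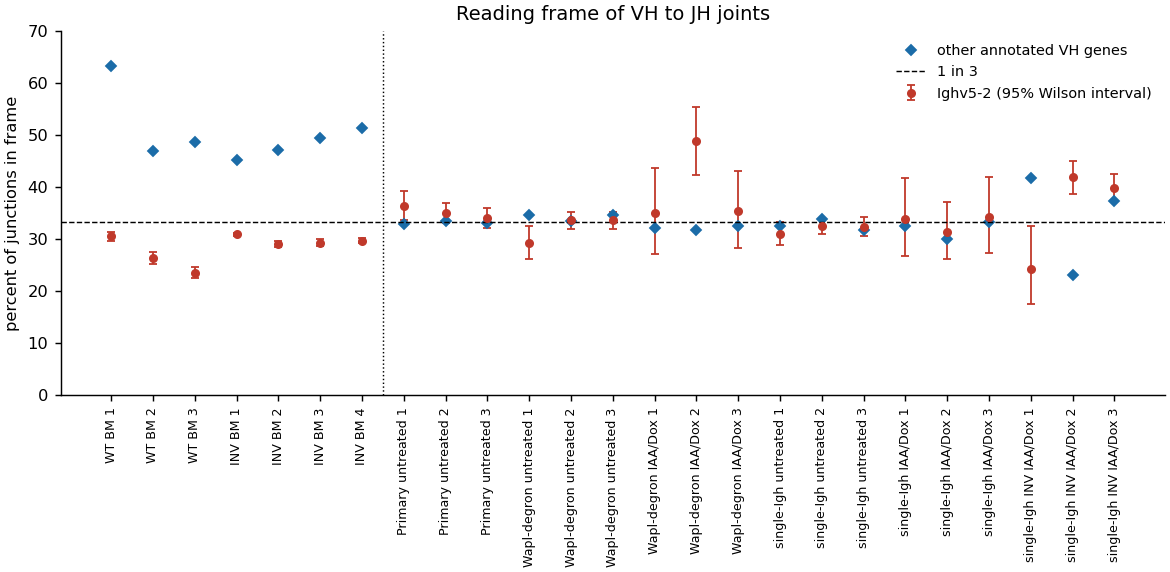
Percent of joints in frame for Ighv5-2 (circles with 95% Wilson intervals) and other annotated VH genes (diamonds) in each of 25 libraries, BM to the left of the dotted line. The dashed line marks 33.3%. In BM the circles lie at 23.5% to 30.9% and the diamonds at 45.2% to 63.3%, and in untreated v-Abl lines the circles lie at 29.2% to 36.3%.

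Libraries differed in the JH segments found at the bait end, although the titles name JH1-4 for all of them. Of the 25 libraries 7, all from v-Abl lines, lacked at least 1 JH segment (under 1% of D plus VH junctions), such as single-Igh untreated replicate 1 with JH2 alone and single-Igh INV IAA/Dox replicate 1 with JH1 alone. All 7 BM libraries had the 4 JH segments. There the JH1 share of Ighv5-2 junctions was 13.7% ± 1.86 in INV BM (SD, n = 4) and 19.05% ± 6.62 in WT BM (SD, n = 3), a difference of -5.34 points with overlap (exact permutation p = 0.229, adjusted p = 0.64). None of the 16 group comparisons of JH shares passed (exact permutation, adjusted p = 0.64 to 1), and none could with so few libraries. In v-Abl lines those comparisons, like the share comparisons above, set libraries with different JH segments at the bait end side by side. The part of this difference was not tested.

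Ighv5-2 was joined to JH1, the segment nearest D, less often than other VH segments were. In WT BM the JH1 share was 13.4%, 17.4% and 26.3% for Ighv5-2, 20.2%, 23.2% and 26.2% for other VH segments, and 21.9%, 26.1% and 29.7% for D. In Primary untreated replicates 2 and 3 it was 14.3% and 13.9%, against 19.8% and 20.8% for other VH and 27.9% and 26.7% for D. Over 22 libraries with JH1 among other baits, Ighv5-2 was lower than other VH in 18 and higher in 4, by a mean of -3.94 ± 3.51 points (SD, sign-flip permutation p = 8.0e-05, adjusted p = 2.0e-04). Against D it was lower in 21 of 22, by -9.34 ± 4.60 points. The sign-flip p takes each library as independent, although libraries of a group share a line or genotype.

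The other JH segments differed less. JH3 was higher at Ighv5-2 in 13 of 19 libraries, by 1.94 ± 3.36 points (SD, sign-flip permutation p = 0.0167, adjusted p = 0.0278). JH2 was higher in 16 of 22, by 1.57 ± 7.04 points (sign-flip permutation p = 0.310, adjusted p = 0.388). JH4 was higher in 11 of 23, by 0.493 ± 5.59 points (sign-flip permutation p = 0.682). These 4 shares add up to a fixed total within a library and are not independent.

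**Figure D5:**
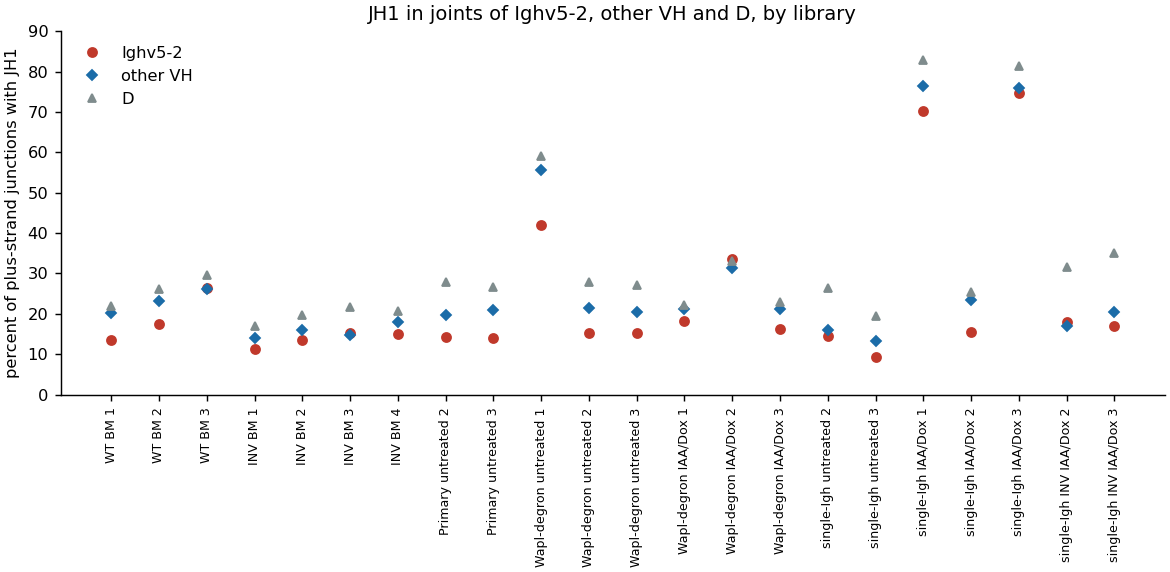
Percent of plus-strand junctions with JH1 for Ighv5-2, other VH segments and D in the 22 libraries where JH1 was one of several baits. Libraries differ in level, and within a library Ighv5-2 lies below D in 21 and below other VH in 18.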

How the data were processed

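Every line of a list deposited by the authors is 1 junction, with prey position, strand, alignment ends and read sequence, per the file headers. These deposited values are positions and letters without a scale or normalization. The aligner was Bowtie2, per the submitters' processing notes, and the build mm9, per the labels. Counts were made here from the 25 full JH-bait lists. Wapl-degron IAA/Dox replicate 2 had 226216 lines but 161891 read names, so some of its reads were listed more than once. Lines and read names were close in number in the other libraries. With each read name counted once, the decrease of Ighv5-2 in D plus VH junctions for that group was 2.96-fold, against 2.91-fold with all lines. The file headers name filters on large gaps and on duplicates, without thresholds. These bear on the bases between bait and prey and on how often an event is listed.

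Positions no more than 20 bp apart were pooled into VH segments, with the Ighv5-2 interval kept whole. Of 706 segments, 295 had 10 junctions or more. Group means were tested by exact permutation of libraries, two-sided, in 8 comparisons for shares and 4 for joints, with Benjamini-Hochberg adjustment. Differences within libraries were tested by sign-flip permutation with 100000 resamples (scipy 1.17.1, Python 3.11.15). Each library was flipped on its own, so likeness between libraries of the same group, of 8 groups, is not accounted for. For each of 6 comparisons limma 3.58.1 in R 4.3.3 (voom with a prior count of 0.5, then lmFit and eBayes) was fitted to segments of 10 junctions or more. The library size was the D plus VH total and the threshold an adjusted p of 0.05. Simulations with a spread of 0.3 changed some segments 8-fold, up or down at random, such as 17 of 67 and 68 of 271. The share of changed segments found was 88.2% in the design of Wapl-degron untreated and Primary untreated (67 segments). It was 92.7% in the design of INV BM and WT BM (271 segments) and 100% in that of the Wapl-degron treatment (128 segments). It was 97.1% for the single-Igh treatment (134 segments) and 94.1% for the inverted single-Igh line (136 segments). For WT BM and Primary untreated it was 97.8% (184 segments). In the data, except for the first of these designs, 64.9% to 97.8% of segments were called, mostly in 1 direction. These shares therefore do not measure power for such data or for changes smaller than 8-fold.

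JH segments were told apart by the bait end. The frame was computed from the annotated V codons, the bases between and the tryptophan codon of each JH. Neighbouring genes were counted from 26 bp past the coding end to 20 bp beyond the gene. Names came from the RefSeq table through older symbols (112 of 112 genes), and sequences from the mm9 genome. VH genes are related, and mapping filters may move or drop junctions of near-identical genes.

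Replicate numbers come from the titles. Each Wapl-degron untreated library deviated most like the same-numbered Primary library (correlations 0.333, 0.253 and 0.138 over segments). In the other comparisons this did not hold for every replicate number, and correlations of same-numbered libraries ran from -0.135 to 0.145. The interval, the gene lists and the comparisons were chosen with earlier results of these data known. Genes named are Ighv5-2, the 10 VH genes nearest D and the 5 segments with the highest Spearman's rho; Ighv8-12, the segment at chr12:117193769 and Ighd1-1 were named after their values were seen. Plots were drawn with matplotlib 3.10.9.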

Additional observations from a re-analysis of the deposited data

Results flagged for a closer look

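INV BM replicate 1 stood apart from the other 3 libraries of its group in the percent of D plus VH junctions at Ighv5-2, with 11.2% against 7.53% to 7.55%. The gap to the nearest library was 0.992 of the group's range, above Dixon's 95% critical value for 4 libraries. It was sequenced in run 1, together with WT BM replicate 1, which had the lowest value of its group (2.82%). Of 9 measures tested in this group it was the only one to stand apart. Chance does so for about 1 in 20 groups at each measure, so with 9 measures 1 such value by chance is more likely than that. In the percent of VH junctions the same library had 85.4%, against 83.1% to 83.8%.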

How the results depend on the processing

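Of 637 recomputed values for 59 results, 604 kept direction and side of the threshold, 28 turned direction, 4 lost a call and 1 gained one. The cause of these changes was not tested. No share of Ighv5-2 turned direction except Wapl-degron untreated against Primary untreated, which became 0.11 points with distinct junctions counted once. That setting also gave a log2 difference of 0.13 for this pair, -0.514 points in frame for single-Igh IAA/Dox against untreated and -1.36 points of JH3 for INV BM against WT BM.

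In the limma fits, WT BM against Primary untreated had log2 differences of 1.53 with all junctions and -2.55 with VH junctions as library size. For the inverted single-Igh line against single-Igh IAA/Dox the value was 0.87 with the run as a block and 1.13 with segments of 1 junction or more. With the replicate block the values were 1.49 for INV BM, -1.57 and -1.85 for IAA/Dox in the Wapl-degron and single-Igh lines, 1.14 for the inverted single-Igh line, -0.18 for the untreated Wapl-degron line and 3.15 for WT BM against Primary untreated, and no call of Ighv5-2 changed.

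The number of segments called moved by over 1.5 times in these fits. With VH junctions as library size it was 52 against 156 for WT BM and Primary untreated, and 50 against 133 for the inverted single-Igh line. With the run as a block it was 76 against 129 for single-Igh IAA/Dox. With segments of 1 junction or more it was 253 against 121 and 235 against 129 for IAA/Dox in the Wapl-degron and single-Igh lines, and with segments of 100 or more it was 58, 61 and, for the inverted line, 53 (more or fewer segments were tested there).

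Leaving out 1 library at a time gave log2 differences of 1.04 to 1.55 for INV BM against WT BM, and these ranges where a direction or call changed. The median bases between moved from -0.5 to 1.5 for single-Igh IAA/Dox against untreated. The in-frame share moved from -1.12 to 7.71 points for the inverted single-Igh line. JH1 moved from -6.87 to 7.41 points for Wapl-degron IAA/Dox and from -36.0 to 5.46 for the inverted single-Igh line. JH2 moved from -2.28 to 4.24 for INV BM and from -8.12 to 22.8 for Wapl-degron IAA/Dox. JH3 moved from -7.44 to 0.839 for single-Igh IAA/Dox and from -6.84 to 1.82 for the inverted line. JH4 moved from -2.49 to 2.66 for Wapl-degron IAA/Dox and from -5.32 to 3.74 for the inverted line. Within libraries, the difference to other VH moved from 1.16 to 2.56 for JH2, where leaving out single-Igh INV IAA/Dox replicate 2 gave p = 0.0439 (sign-flip permutation), and from -0.0952 to 1.03 for JH4. Libraries with IAA/Dox held only 120 to 1361 Ighv5-2 junctions, which limits their joint features.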
